A study of Mus musculus with 30 samples.

Results

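The carbonic anhydrases Car1, Car2, Car4, Car8, Car12 and Car13 and the aquaporins Aqp1, Aqp3, Aqp4 and Aqp8 were described in the small intestine of mice after deletion of Rb1, which encodes the retinoblastoma protein and is called Rb in the labels, alone or together with Myc. They are 10 of the 18194 genes that have a probe set of their own on the array, and each was read from the probe set with the highest mean over the 30 arrays, with the gene's other probe sets read as a check. All 10 lay above the lower limit set on mean signal and were tested among 14548 genes. The study profiled total RNA of villi, the finger-like folds that carry the differentiated epithelium, and of crypts, the pits that hold the dividing cells, from mice that were 2 months old, 5 days after the deletion. The mice were controls, carried the knockout of Rb alone (Rb KO) or carried the double knockout of Rb and Myc (DKO), with 5 arrays in each of the 6 groups. The deletion was made with Ah-cre, an inducible Cre recombinase driven by the xenobiotic-responsive promoter of Cyp1a1 and described by the labels as acting in the intestine. The labels do not state which alleles or which inducing agent the controls carried or received, nor that the 5 arrays of a group came from separate animals, so the p-values measure the spread between these arrays.

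Carbonic anhydrases catalyse the exchange of carbon dioxide and water with bicarbonate and protons, and in the intestine they feed the bicarbonate secretion and the coupled sodium and chloride uptake of the epithelium. Cytosolic forms work inside the cell, membrane-bound forms work at its surface, and a few family members have lost catalysis. Aquaporins are channel proteins through which water, and in some members glycerol or other small solutes, crosses a membrane. Enterocytes place different carbonic anhydrases and aquaporins on their luminal and their basolateral side and along the axis from crypt to villus.

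Rb1 was lower in both tissues of both mutants, and Myc was called lower in DKO crypts but not in DKO villi. Rb1 lay at 9.14 to 10.21 in control villi against 8.19 to 8.66 in the mutant villi, and at 9.32 to 10.49 in control crypts against 8.05 to 8.60 in the mutant crypts, all on the log2 scale of the deposited values. Myc lay at 8.67 to 9.01 in DKO crypts against 9.98 to 11.04 in the other crypts. In DKO villi Myc differed from Rb KO by -0.52 ± 0.21 (adjusted p = 0.147), with no overlap of these groups, and from control by -0.30 ± 0.21 (adjusted p = 0.354), with overlap. Which part of either gene the probe sets read, inside or outside the deleted part, was not determined here. The mean of 7 villus enterocyte markers was 14.09 to 14.29 in villi and 12.33 to 13.47 in crypts, and that of 8 crypt markers was 8.02 to 10.22 in villi and 12 to 12.67 in crypts. The villus and crypt arrays appear to have been normalized apart, so differences between genotypes were tested within a tissue, and levels of villi and crypts are given side by side without a test.

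The genotype differences of the 10 genes are given on the log2 scale with their standard error, and a gene was said to rise or fall where its p-value, adjusted over the 14548 genes by the method of Benjamini and Hochberg, was below 0.05. In Rb KO villi against control villi 1 of the 10 rose (Car13) and 3 fell (Aqp8, Aqp1 and Car8), beside 30.5 percent of all genes tested called in either direction (14.7 percent higher and 15.8 percent lower). In DKO against Rb KO villi 1 rose (Car8) and 1 fell (Car4), beside 7.83 percent of all genes (5.9 percent higher and 1.92 percent lower). In DKO against control villi 1 rose (Car13) and 2 fell (Car4 and Aqp8), beside 17.1 percent (11.3 percent higher and 5.78 percent lower). In Rb KO against control crypts 1 rose (Car13) and 1 fell (Car12), beside 10.3 percent of all genes (7.33 percent higher and 2.97 percent lower). In DKO against Rb KO crypts 2 rose (Aqp1 and Aqp4) and 1 fell (Car4), beside 12.4 percent (5.17 percent higher and 7.22 percent lower). In DKO against control crypts 4 rose (Car2, Car13, Aqp1 and Aqp4) and 2 fell (Car4 and Car12), beside 20.2 percent of all genes (11 percent higher and 9.19 percent lower). In Rb KO villi 4 of 10 is near the share of all genes, and leaving out 1 array at a time gave 1 to 4 calls there and 0 to 2 in DKO against Rb KO villi. The median difference of the 10 genes was -0.32, 0.25 and 0.01 in the 3 villus comparisons in the order given, and -0.19, 0.02 and 0.05 in the 3 crypt comparisons, where the median of all genes tested was between -0.03 and 0.01. The 3 comparisons within a tissue share arrays and are not independent of each other, and in bulk tissue of this kind a lower value from fewer cells of a type and from less RNA per cell cannot be told apart.

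**Figure D1:**
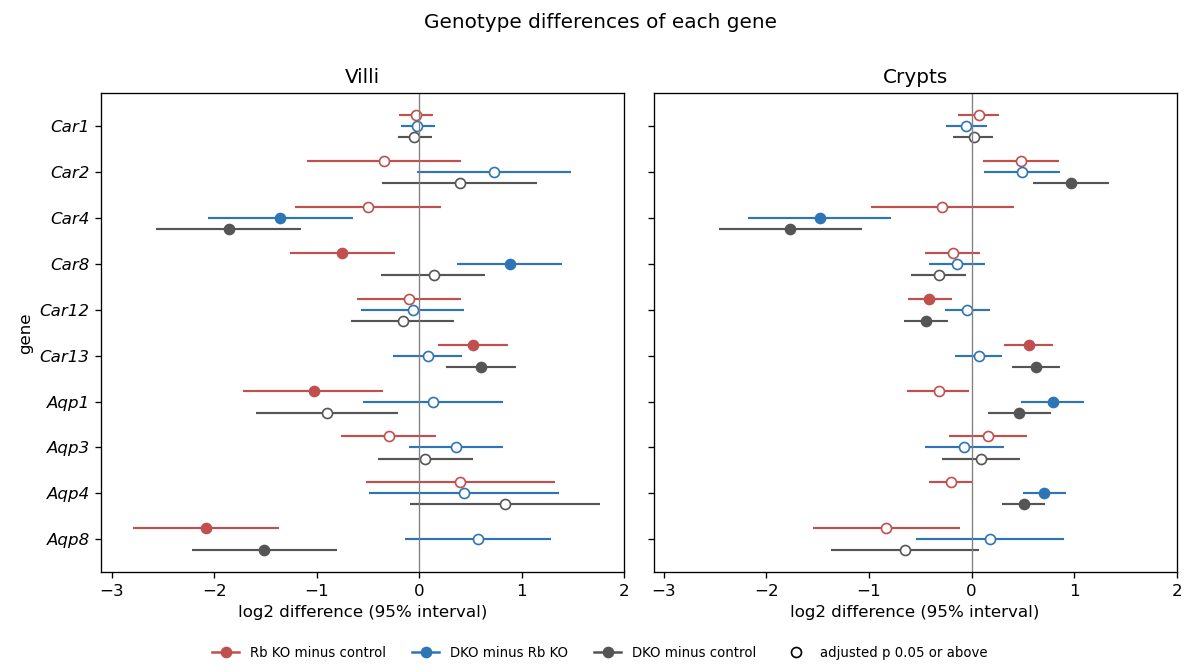
Genotype differences of the 10 genes, on the log2 scale, in villi (left) and crypts (right), with the 95% interval of each difference from the fit. Filled points passed an adjusted p of 0.05 and open points did not: Aqp8 in Rb KO villi lies farthest from 0, at -2.08, and Car4 lies below 0 in DKO against Rb KO and against control in both tissues.

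The steepest of these falls was that of Aqp8, a water channel that also passes ammonia and hydrogen peroxide. In control villi it read 10.52, 10.51, 9.96, 9.08 and 9.62 in replicates 1 to 5. In Rb KO villi it read 8.04, 8.91, 8.15, 7.01 and 7.19, and in DKO villi 8.38, 8.97, 8.26, 8.23 and 8.29. Every mutant array lay below every control array, and the Rb KO and DKO arrays overlapped. From a control mean of 9.94 ± 0.61 (SD, n = 5) it fell to 7.86 ± 0.77 in Rb KO, a difference of -2.08 ± 0.33 (4.22-fold lower, adjusted p = 0.000228). DKO villi, at 8.43 ± 0.31, differed from control by -1.51 ± 0.33 (2.85-fold lower, adjusted p = 0.00531). DKO differed from Rb KO by 0.57, with a 95% interval from -0.14 to 1.28 and an adjusted p of 0.308. Both calls against control held in all 27 alternatives. A sign of RNA quality moved with genotype in villi: the log2 difference between the 3′ and 5′ control probe sets of Gapdh ranged from -0.211 to -0.112 over the control arrays, from -0.0903 to 0.0115 over those of Rb KO, and from -0.108 to -0.0666 over those of DKO, without overlap between control and mutants. The same difference for beta-actin was 0.142 to 0.235, 0.193 to 0.29 and 0.173 to 0.219, with overlap. Their part in the villus differences of the 10 genes was not tested.

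In crypts Aqp8 read 7.78, 8.21, 7.56, 6.18 and 6.77 in controls, 6.82, 6.93, 6.52, 5.88 and 6.22 in Rb KO, and 7.19, 7.24, 6.26, 6.34 and 6.20 in DKO. The groups overlapped, and the control spread was wide, with control 4 the lowest of its group in crypts as it was in villi. Neither the difference of Rb KO from control, -0.83 ± 0.34 (adjusted p = 0.146), nor that of DKO, -0.65 ± 0.34 (adjusted p = 0.206), passed the threshold. With control 4 left out both did, at -1.10 (adjusted p = 0.0336) and -0.93 (adjusted p = 0.0444). Villi and crypts that share a genotype and a number followed each other in this gene, so that Rb KO 4 and 5 were the lowest pair of the Rb KO arrays in both tissues and DKO 1 and 2 the highest pair of the DKO arrays.

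The promoter of Aqp8 is shown because this gene carried the largest difference from control. It spans chr7:123462044-123462343 of the build GRCm38.p6, on the plus strand, from 250 bases before to 50 bases after the start of the gene as RefSeq annotates it. The capitals mark CACGTG, the letters of the E-box to which Myc and its partner Max bind, whose first base lies at position -75 from the start.
Aqp8: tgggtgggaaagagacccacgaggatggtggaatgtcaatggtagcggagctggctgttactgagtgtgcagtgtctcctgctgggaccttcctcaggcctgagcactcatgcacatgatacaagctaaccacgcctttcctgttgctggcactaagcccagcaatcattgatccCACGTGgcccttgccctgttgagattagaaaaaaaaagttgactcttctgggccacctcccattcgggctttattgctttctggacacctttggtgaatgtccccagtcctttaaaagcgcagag
CACGTG, which reads the same on both strands, occurs in 7.2 percent of the 32851 promoters of this length in the RefSeq table. Of the 10 genes, the promoters of 5 were searched (Car4, Car12, Aqp1, Aqp3 and Aqp8), and Aqp8 was the only carrier of CACGTG among these 5. The promoters of the other members were not searched. The E2F words TTTCCCGC, TTTGGCGC, TTTCGCGC and TTTGCCGC, searched on both strands and present in 2.3 percent of all promoters, occurred in none of the 5.

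Aqp1, a water-selective channel well known from red cells, kidney and the lining of small vessels, fell in Rb KO villi and was higher in DKO crypts than in the crypts of either other genotype. In villi it read 11.62, 10.88, 10.92, 11.40 and 9.56 in controls, 9.81, 9.19, 10.55, 9.83 and 9.83 in Rb KO, and 9.43, 10.32, 9.80, 10.27 and 10.06 in DKO. Controls 1 to 4 lay above every mutant array and control 5 lay among the mutants. From a control mean of 10.88 ± 0.80 (SD, n = 5) it fell to 9.84 ± 0.48 after Rb1 loss alone, a difference of -1.03 ± 0.32 (2.05-fold lower, adjusted p = 0.0236). This call was lost without control 1 (-0.85, adjusted p = 0.0605), without control 4 (-0.90, adjusted p = 0.0534), without Rb KO 2 (-0.87, adjusted p = 0.0620), and without Rb KO 4 and 5 together (-1.02, adjusted p = 0.0800). The difference of DKO from control villi, -0.90 ± 0.32, missed the threshold (adjusted p = 0.0685) and passed it without control 5 (-1.23, adjusted p = 0.00323).

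In crypts Aqp1 read 11.83, 11.28, 11.51, 11.85 and 11.02 in controls, 11.14, 11.35, 11.23, 11.02 and 11.12 in Rb KO, and 11.67, 11.90, 12.05, 12.30 and 11.90 in DKO. Every DKO array lay above every Rb KO array, and the controls spread across both. DKO exceeded Rb KO by 0.79 ± 0.14 (1.73-fold, adjusted p = 0.00227), which held in all 27 alternatives although it came down to 0.48 (adjusted p = 0.0257) when a crypt marker score entered the fit. That score, the mean of the 8 crypt markers on an array less the mean of the tissue, stood between -0.39 and 0.04 in Rb KO crypts and between -0.10 and 0.28 in DKO crypts. DKO exceeded control by 0.46 ± 0.14 (adjusted p = 0.0325), a call that was lost without control 2 (0.41), control 3 (0.47), control 5 (0.34), DKO 3 (0.44) or DKO 4 (0.38), at adjusted p-values of 0.0559 to 0.0864. Rb KO lay 0.32 below control (difference -0.32 ± 0.14, adjusted p = 0.181), which passed the threshold without control 5 (-0.45, adjusted p = 0.0397). Of 8 endothelial markers 3 lay above the limit on mean signal, while Pecam1, Cdh5, Tek, Emcn and Vwf did not, and the mean of all 8 was 5.50 to 5.89 in villi and 5.57 to 5.85 in crypts. Of the 3 tested, 1, Egfl7, fell in Rb KO villi (difference -0.30 ± 0.11, adjusted p = 0.0488), beside 15.8 percent of all genes called lower. The median difference of the 3 was -0.03, and the part of endothelial cells in the villus result was not tested.

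**Figure D2:**
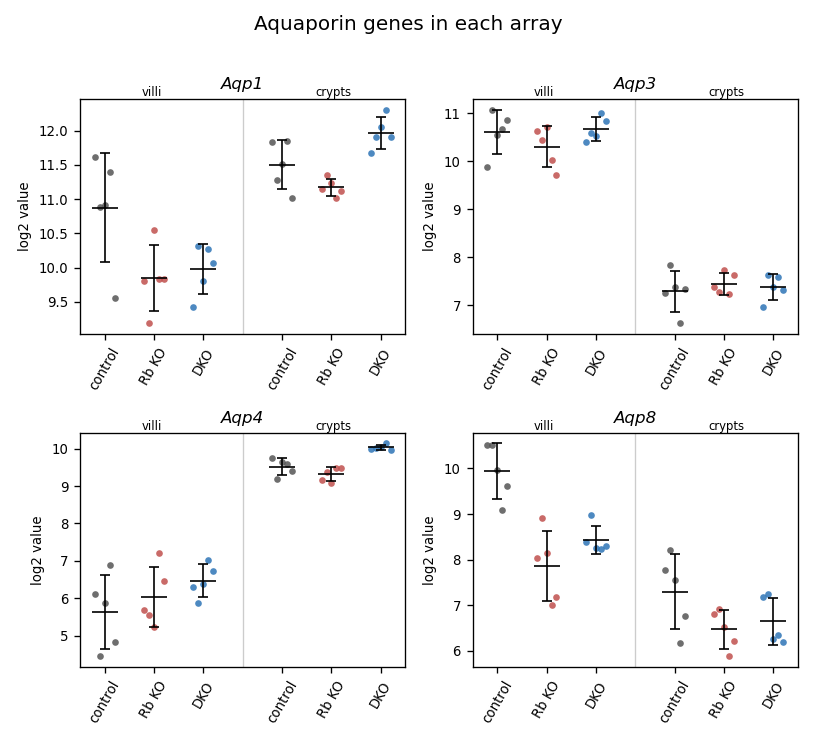
Log2 values of the 4 aquaporin genes in each of the 30 arrays, by genotype, villi to the left and crypts to the right of the vertical line. Points are arrays, long bars are means and short bars 1 SD (n = 5). In villi the Aqp8 points of both mutants, 7.01 to 8.97, lie below those of the controls, 9.08 to 10.52, and in crypts the DKO points of Aqp4, 9.97 to 10.14, lie above those of the other genotypes.

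Aqp4, a water-selective channel of the basolateral membrane in several epithelia, read 9.75, 9.20, 9.64, 9.60 and 9.40 in control crypts. In Rb KO crypts it read 9.17, 9.38, 9.09, 9.49 and 9.47, and in DKO crypts 9.99, 10.02, 10.03, 10.14 and 9.97. All DKO crypt arrays lay above all others and close together, while control and Rb KO overlapped. DKO exceeded Rb KO by 0.71 ± 0.10 (1.63-fold, adjusted p = 0.00029) and control by 0.51 ± 0.10 (1.42-fold, adjusted p = 0.00156), and both calls held in all 27 alternatives. The other 2 probe sets of the gene rose too, by 0.56 and 0.52 against Rb KO (adjusted p = 0.00211 and 0.00206). In DKO against Rb KO crypts 2 of the 8 crypt markers rose too, beside 5.17 percent of all genes called higher. They were the Paneth cell genes Ang4 (difference 0.57 ± 0.12, adjusted p = 0.00418) and Itln1 (difference 0.32 ± 0.07, adjusted p = 0.00547). At an unadjusted p below 0.05 from limma, 5 of the 8 were higher and 0 lower, among them all 4 Paneth markers tested. The median difference of the 8 was 0.30. With the crypt marker score in the fit the difference of DKO from Rb KO was 0.69 (adjusted p = 0.00295).

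In villi Aqp4 was lower and far more variable, at 6.12, 4.45, 5.88, 6.89 and 4.83 in controls, 5.69, 5.56, 5.24, 7.21 and 6.47 in Rb KO, and 6.31, 5.87, 6.39, 7.03 and 6.74 in DKO. The groups overlapped and no villus comparison passed the threshold, the largest being that of DKO with control, 0.84 ± 0.43 (adjusted p = 0.202). Control 4 and DKO 4 were the highest of their groups and had the highest crypt marker scores of the villus arrays, 0.90 and 0.95, and controls 2 and 5 were the lowest of theirs and had the lowest scores, -1.26 and -1.15. With that score in the fit the difference of DKO from control villi was 0.03 (adjusted p = 0.922). The genes with the pattern most like that of Aqp4, by Pearson's r over the 30 arrays after the mean of each tissue was taken away, were Kcne3 (0.95), Slc12a2 (0.94) and Smoc2 (0.91). Kcne3 encodes a subunit of a basolateral potassium channel, Slc12a2 a sodium, potassium and chloride cotransporter and Smoc2 a crypt marker that is part of the score, and all points share the arrays they were read from. The r with Kcne3 was 0.97 over the 15 villus arrays and 0.85 over the 15 crypt arrays.

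**Figure D3:**
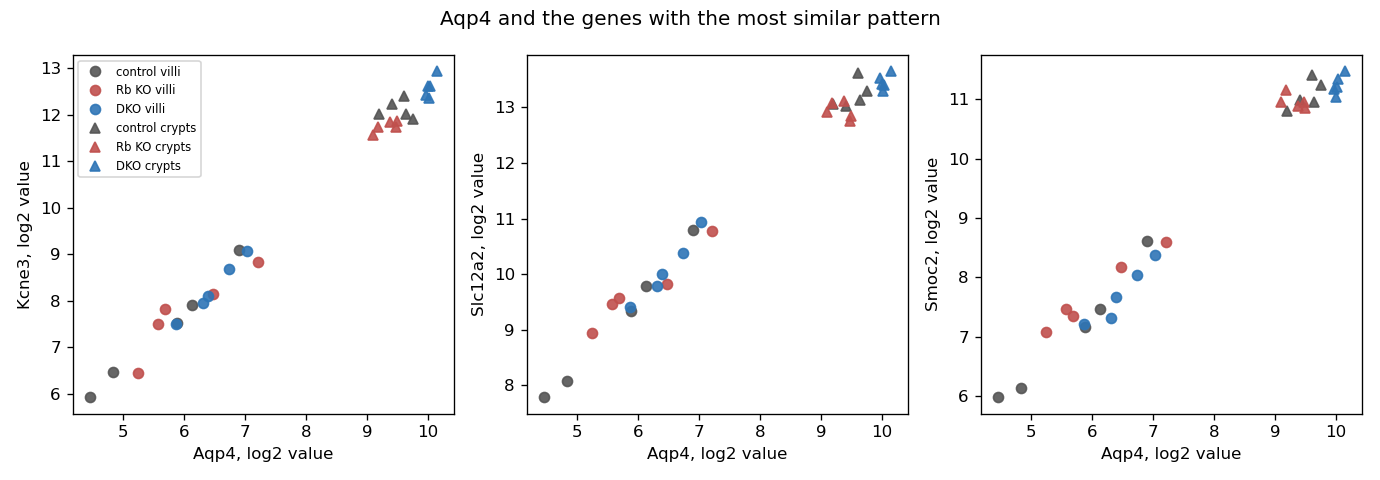
Log2 value of Kcne3, Slc12a2 and Smoc2 (vertical axes) against that of Aqp4 (horizontal axes) in each array, circles for villi and triangles for crypts, coloured by genotype. Among villi the values of each pair go up together over all 3 genotypes, from Aqp4 at 4.45 in control 2 to 7.21 in Rb KO 4, and the crypt arrays form a separate group with Aqp4 above 9.

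Aqp3, a channel for water and glycerol, passed the threshold in 0 of the 6 genotype comparisons and had no unadjusted p below 0.05. Its group means were 10.31 to 10.67 in villi and 7.29 to 7.45 in crypts, and all groups of a tissue overlapped. The largest difference, 0.36 ± 0.22 between DKO and Rb KO villi, had a 95% interval from -0.10 to 0.82 and an adjusted p of 0.315. Of its other 3 probe sets, 2 lay above the limit on mean signal, and neither was called in any genotype comparison.

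Among the membrane-bound carbonic anhydrases, Car4, which a lipid anchor holds at the luminal surface, fell with the loss of Myc on top of Rb1 in both tissues. In villi it read 11.10, 10.06, 10.46, 10.85 and 9.84 in controls, 9.32, 9.39, 9.64, 10.45 and 10.99 in Rb KO, and 7.93, 8.33, 8.67, 8.83 and 9.24 in DKO. Every DKO array lay below every other villus array, and control and Rb KO overlapped, with Rb KO 4 and 5 as high as controls. DKO differed from Rb KO by -1.36 ± 0.33 (2.56-fold lower, adjusted p = 0.0237) and from control by -1.86 ± 0.33 (3.63-fold lower, adjusted p = 0.00106). The call against control held in all 27 alternatives. The call against Rb KO was lost without DKO 1 (-1.19), DKO 2 (-1.29), DKO 3 (-1.37) or Rb KO 4 (-1.23), at adjusted p-values of 0.0511 to 0.0577, and without Rb KO 4 and 5 together it shrank to -0.85 (adjusted p = 0.122). Without those Rb KO arrays the difference of Rb KO from control villi, -0.50 ± 0.33 (adjusted p = 0.284) with all arrays, became -1.01 (adjusted p = 0.0231).

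In crypts Car4 read 12.13, 11.82, 12.07, 10.14 and 11.34 in controls, 10.69, 10.90, 11.28, 11.28 and 11.91 in Rb KO, and 9.81, 9.97, 9.85, 9.04 and 10 in DKO. Again every DKO array lay below all others, although control 4 came near. DKO differed from Rb KO by -1.48 ± 0.33 (2.79-fold lower, adjusted p = 0.00765) and from control by -1.77 ± 0.33 (3.41-fold lower, adjusted p = 0.00115), and Rb KO differed from control by -0.29 ± 0.33 (adjusted p = 0.660). The call against Rb KO was lost with the crypt marker score in the fit (-0.98, adjusted p = 0.0962) and without Rb KO 4 and 5 (-1.23, adjusted p = 0.0603). A further probe set of Car4 gave, for DKO against Rb KO, -1.44 among the villus arrays (adjusted p = 0.0138) and -1.53 among the crypt arrays (adjusted p = 0.00687). The genes most like Car4 in pattern over the 30 arrays were Me2, a mitochondrial malic enzyme, Sdccag8 and Tmem97, at r of 0.87, 0.86 and 0.83.

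The promoter of Car4, the gene called in DKO against both other genotypes in both tissues, spans chr11:84957504-84957803 of GRCm38.p6 on the plus strand and holds neither CACGTG nor an E2F word. The capitals mark TATAAA, searched on the gene's strand only and found in 8.3 percent of the promoters, whose first base lies at position 43 after the start.
Car4: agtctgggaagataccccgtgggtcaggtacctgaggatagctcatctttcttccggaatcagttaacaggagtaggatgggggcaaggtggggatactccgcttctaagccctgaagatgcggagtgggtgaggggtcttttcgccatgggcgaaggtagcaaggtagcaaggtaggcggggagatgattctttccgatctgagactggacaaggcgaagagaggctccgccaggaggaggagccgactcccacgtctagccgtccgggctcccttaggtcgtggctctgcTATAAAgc
Aqp3 was the other of the 5 promoters with TATAAA, at position -29.

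Car12, a membrane-spanning enzyme with its active site outside the cell, fell in mutant crypts. It read 9.62, 8.98, 9.06, 9.34 and 9.09 in control crypts, 8.93, 8.71, 8.81, 8.83 and 8.78 in Rb KO crypts, and 8.78, 8.66, 8.96, 8.83 and 8.65 in DKO crypts. Every control array lay above every mutant array, by a narrow margin, and the mutants overlapped. Rb KO differed from control by -0.41 ± 0.10 (1.32-fold lower, adjusted p = 0.0187), DKO from control by -0.44 ± 0.10 (1.36-fold lower, adjusted p = 0.00572), and DKO from Rb KO by -0.04 ± 0.10 (adjusted p = 0.853). The first of these calls was lost with the crypt marker score in the fit (-0.30, adjusted p = 0.10) and without Rb KO 4 and 5 (-0.40, adjusted p = 0.0872). A second probe set above the limit on mean signal gave -0.09 (adjusted p = 0.614) and -0.11 (adjusted p = 0.443), and averaging the probe sets of the gene gave -0.19 (adjusted p = 0.0169) and -0.20 (adjusted p = 0.00761). In villi the group means were 6.90 to 7.06 and nothing passed the threshold. With the score in the fit the difference of DKO from control villi went from -0.16 (adjusted p = 0.674) to -0.56 (adjusted p = 0.0189), and control villi 4, which had the highest score of the controls, held the highest Car12 value, 8.05.

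**Figure D4:**
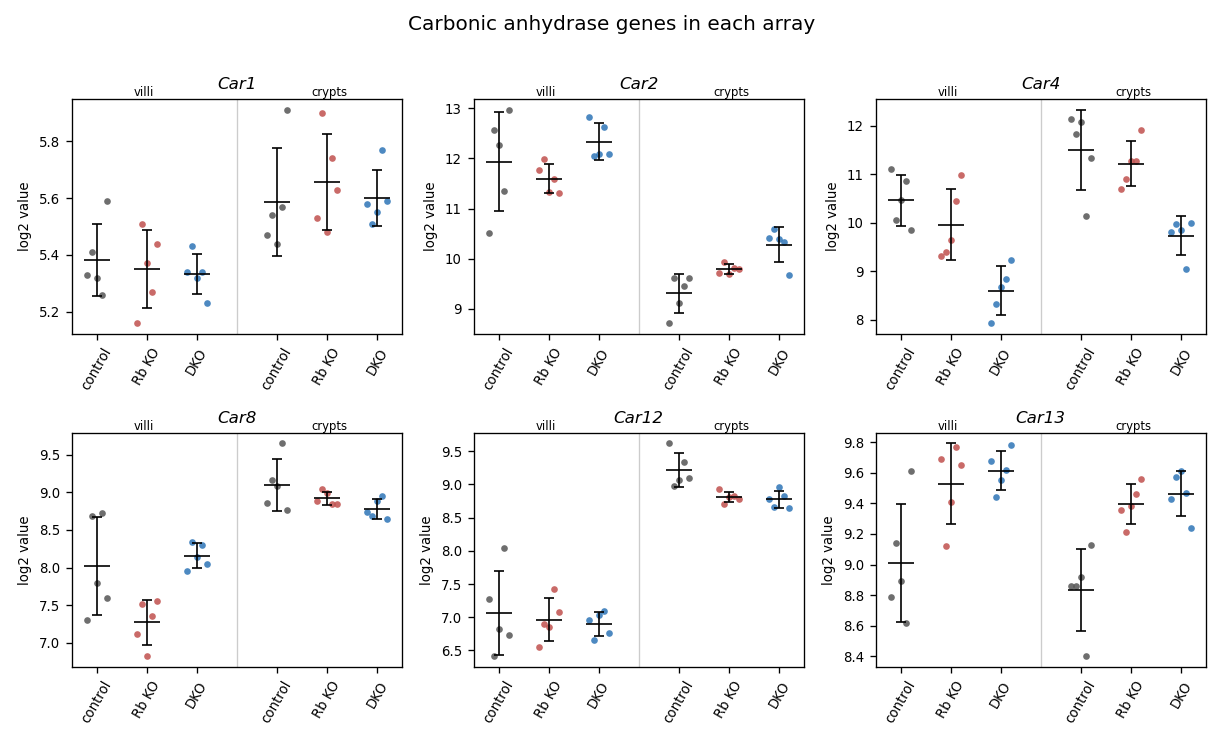
Log2 values of the 6 carbonic anhydrase genes in each of the 30 arrays, by genotype, villi to the left and crypts to the right of the vertical line. Points are arrays, long bars are means and short bars 1 SD (n = 5). The Car4 points of DKO, 7.93 to 9.24 in villi and 9.04 to 10 in crypts, lie below those of the other genotypes, and the control crypt points of Car13, 8.40 to 9.13, lie below those of both mutants.

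Of the cytosolic enzymes, Car13 was higher in both mutants in both tissues. In crypts it read 8.86, 8.86, 8.92, 8.40 and 9.13 in controls, 9.36, 9.21, 9.38, 9.46 and 9.56 in Rb KO, and 9.43, 9.57, 9.61, 9.47 and 9.24 in DKO. Every control lay below every mutant array, and the mutants overlapped. Rb KO exceeded control by 0.56 ± 0.11 (1.47-fold, adjusted p = 0.00405) and DKO exceeded control by 0.63 ± 0.11 (1.55-fold, adjusted p = 0.000761), with both calls kept in all 27 alternatives, and DKO differed from Rb KO by 0.07 (95% interval -0.16 to 0.30). In villi it read 8.79, 9.14, 8.89, 8.62 and 9.61 in controls, 9.69, 9.12, 9.41, 9.77 and 9.65 in Rb KO, and 9.68, 9.44, 9.55, 9.62 and 9.78 in DKO. Here control 5 lay among the mutants and control 2 just above the lowest of them, Rb KO 2. The difference of DKO from control was 0.60 ± 0.16 (adjusted p = 0.0165) and that of Rb KO from control 0.52 ± 0.16 (adjusted p = 0.0218).

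The villus call of Car13 in Rb KO was lost without any of Rb KO 1 (0.48), Rb KO 4 (0.46), control 1 (0.46), control 3 (0.49) and control 4 (0.42), at adjusted p-values of 0.0507 to 0.0584, and without Rb KO 4 and 5 together (0.40, adjusted p = 0.141). It was also lost when the gene's probe sets were averaged (0.39, adjusted p = 0.0841) and with only the groups compared in the fit (0.52, adjusted p = 0.0526). A second probe set of Car13 gave 0.67 in Rb KO crypts (adjusted p = 0.0104) and 0.50 in Rb KO villi (adjusted p = 0.0502). The genes most like Car13 in pattern were Prelid3b, the ubiquitin-conjugating enzyme gene Ube2k, and Med9, a subunit of the Mediator complex, at r of 0.91, 0.89 and 0.86 over the 30 arrays.

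Car2, the cytosolic form of high activity found in most secreting and absorbing epithelia, read 8.71, 9.62, 9.12, 9.46 and 9.62 in control crypts. In Rb KO crypts it read 9.72, 9.94, 9.70, 9.81 and 9.79, and in DKO crypts 10.41, 10.59, 10.39, 10.33 and 9.68. All mutant arrays lay above all control arrays, and 4 of the 5 DKO arrays lay above every Rb KO array, DKO 5 being the exception. DKO exceeded control by 0.97 ± 0.17 (1.96-fold, adjusted p = 0.000883), which held in all 27 alternatives. The steps from control to Rb KO, 0.48 ± 0.17 (adjusted p = 0.0934), and from Rb KO to DKO, 0.49 ± 0.17 (adjusted p = 0.0792), missed the threshold. Without DKO 5 both passed, at 0.48 (adjusted p = 0.0418) and 0.64 (adjusted p = 0.0136), and without control 1 the second did (0.49, adjusted p = 0.0340). The second also passed with the crypt marker score in the fit (0.70, adjusted p = 0.0369), with sex as a covariate (0.56, adjusted p = 0.024) and with only the groups compared (0.49, adjusted p = 0.0367). Of the 7 villus enterocyte markers limma called 0 in Rb KO against control, DKO against Rb KO and DKO against control crypts, beside 10.3, 12.4 and 20.2 percent of all genes. At an unadjusted p below 0.05, 1 was higher in each mutant against control and 1 lower in DKO against Rb KO. Their median differences were 0.25, 0.05 and 0.22 in the same order. Their crypt means were 12.87 ± 0.37 for control, 13.10 ± 0.23 for Rb KO and 13.06 ± 0.20 for DKO (SD, n = 5), and the part of enterocytes in the Car2 result was not tested.

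In villi Car2 stood at 10.52, 12.57, 12.27, 11.35 and 12.97 in controls, 11.78, 11.98, 11.33, 11.60 and 11.31 in Rb KO, and 12.83, 12.04, 12.09, 12.63 and 12.08 in DKO. The controls spread over the whole range of the mutants and beyond. The DKO arrays lay above the Rb KO arrays, but the difference, 0.73 ± 0.35, had an adjusted p of 0.215 and a 95% interval from -0.02 to 1.48. With only these groups in the fit it passed (0.73, adjusted p = 0.0281). Scarb1, a lipoprotein receptor, Gstt1, a glutathione transferase, and the growth factor gene Tgfa were most like Car2 in pattern, at r of 0.85, 0.85 and 0.83 over the 30 arrays.

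Car1, a cytosolic form abundant in red cells and colon, was near the lower limit of the genes tested, 5.33, with group means of 5.33 to 5.38 in villi and 5.58 to 5.65 in crypts. It passed the threshold in 0 of the 6 comparisons, with no unadjusted p below 0.05, and the intervals of its differences lay within -0.25 and 0.27. Of 6 erythroid markers 3 had a probe set and 1, Alas2, lay above the limit, while Hba-a1, a haemoglobin gene, was at 4.51 to 4.94 in villi and 4.72 to 5.26 in crypts. In RefSeq's table of GRCm38.p6 Car13, Car1, Car3 and Car2 follow each other on chromosome 3 with no other protein-coding gene between them. Of these neighbours Car13 and Car2 rose in DKO crypts, by 0.63 and 0.97 against control, Car1 differed by 0.02, and Car3, a cytosolic form of muscle and fat, was at 5.41 in control and 5.52 in DKO crypts and was not called.

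Car8, a family member without catalytic activity that binds the receptor for inositol trisphosphate, was the sole member to fall in Rb KO villi and rise again in DKO villi. It read 7.30, 8.69, 7.80, 8.72 and 7.60 in control villi, 7.12, 7.51, 6.82, 7.36 and 7.55 in Rb KO villi, and 7.95, 8.34, 8.14, 8.30 and 8.05 in DKO villi. Every DKO array lay above every Rb KO array, while control 1 lay within the range of the Rb KO arrays and control 5, at 7.60, just above it. Rb KO differed from control by -0.75 ± 0.24 (1.68-fold lower, adjusted p = 0.0266) and DKO from Rb KO by 0.88 ± 0.24 (1.84-fold higher, adjusted p = 0.0361), and DKO from control by 0.14 (95% interval -0.37 to 0.64). Because both called differences use the same Rb KO arrays, the fall and the rise are not independent observations.

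Both villus calls of Car8 depended on single arrays. The fall was lost without Rb KO 1 (-0.71), Rb KO 3 (-0.63), control 2 (-0.58) or control 4 (-0.57), at adjusted p-values of 0.0584 to 0.0759, and averaging the gene's probe sets gave -0.49 (adjusted p = 0.0345). The rise was lost without Rb KO 1 (0.84), Rb KO 3 (0.77), Rb KO 4 (0.91), DKO 2 (0.84), DKO 3 (0.89), DKO 4 (0.85) or DKO 5 (0.91), at adjusted p-values of 0.0543 to 0.0771, and when the gene's probe sets were averaged (0.55, adjusted p = 0.0548). Markers of enteroendocrine cells, the hormone-secreting cells of the epithelium, moved in the same way: 3 of 7 fell in Rb KO villi (Chga, Neurod1 and Gcg) and 4 of 7 rose in DKO against Rb KO villi (Neurod1, Gcg, Gip and Cck), beside 15.8 and 5.9 percent of all genes in these directions. Their mean was 10 to 10.43 in control villi, 9.32 to 10.07 in Rb KO villi and 9.93 to 10.48 in DKO villi, and their part in the Car8 result was not tested. In crypts Car8 means were 9.10 ± 0.35, 8.92 ± 0.09 and 8.78 ± 0.13 (SD, n = 5) in control, Rb KO and DKO, with no call. The difference of DKO from control crypts, -0.32 ± 0.13 (adjusted p = 0.0863), passed the threshold without control 5 (-0.41, adjusted p = 0.0268) and with the crypt marker score in the fit (-0.37, adjusted p = 0.0309). Of the 7 endocrine markers 3 fell and 1 rose in Rb KO against control crypts, beside 2.97 and 7.33 percent of all genes in these directions.

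An interaction fitted to the 30 arrays together asked whether a genotype effect differed between the tissues. For DKO against Rb KO, 1 of the 10 genes passed, beside 2.29 percent of all genes called in that direction: the effect on Car8 was lower in crypts than in villi (difference -1.02 ± 0.28 on the log2 scale, adjusted p = 0.0432). Equally numbered villi and crypts of a genotype deviated in the same direction and were taken as 1 animal, and with the animal as a block the standard error was 0.18 and the adjusted p 0.00384, beside 6.01 percent of all genes. Without the block the call was lost in 14 of 24 alternatives, among them leaving out control 3 or any 1 of Rb KO 1 to 4 and DKO 1 to 5, at differences of -0.89 to -1.06 and adjusted p-values of 0.0542 to 0.116. The second probe set of Car8, near the limit on mean signal, gave -0.25 without the block (adjusted p = 0.428).

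For Rb KO against control, 0 of the 10 genes passed with limma without the block, beside 13.7 percent of all genes, and 1 had an unadjusted p below 0.05. With the animal as a block 4 passed, beside 10.9 percent of all genes called in the same direction. In all 4 the difference of Rb KO from control was higher in crypts than in villi. The effect of Rb1 loss on Aqp8 was less negative in crypts than in villi by 1.25 ± 0.19 on the log2 scale (adjusted p = 0.000284, against 0.0993 without the block). In crypts Aqp8 had a control mean of 7.30 and Rb KO arrays at 5.88 to 6.93, where the lower limit of the genes tested was 5.33. The part of this low crypt signal in the smaller fall was not tested. For Car2 the effect in crypts exceeded that in villi by 0.82 ± 0.28 (adjusted p = 0.0446, against 0.203), for Aqp1 by 0.71 ± 0.24 (adjusted p = 0.0483, against 0.225; for DKO against Rb KO it was 0.66, with adjusted p-values of 0.0991 and 0.328) and for Car8 by 0.56 ± 0.18 (adjusted p = 0.0352, against 0.201). Without the block, Car2 passed when control 1 was left out (1.02, adjusted p = 0.0350) and Aqp1 when control 5 was left out (0.91, adjusted p = 0.0435).

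**Figure D5:**
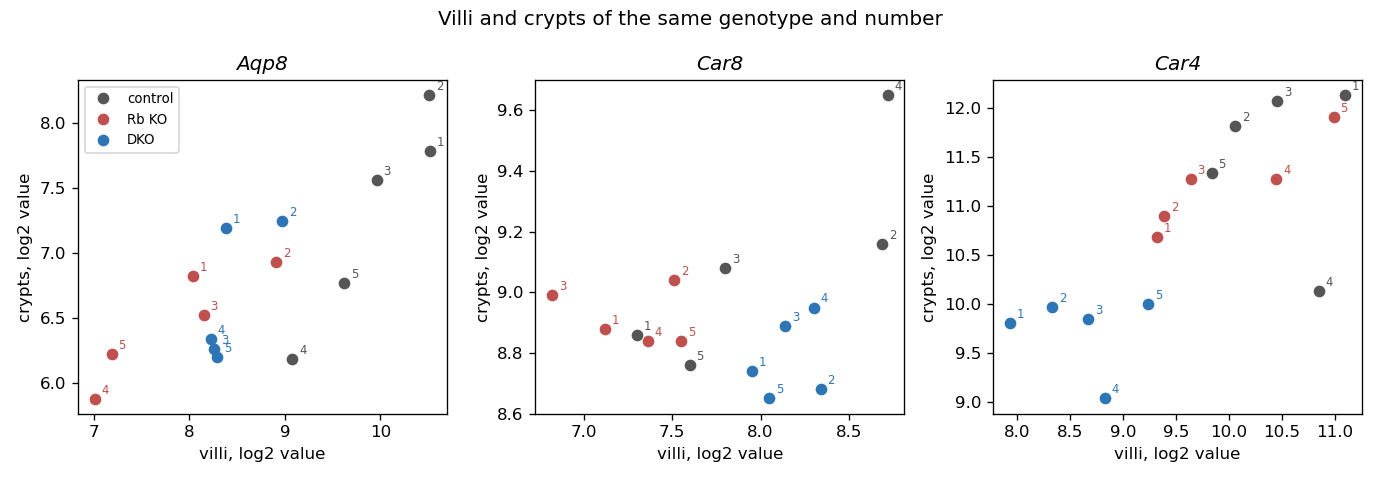
Log2 values in crypts (vertical axes) against villi (horizontal axes) of Aqp8, Car8 and Car4, 1 point for each genotype and number, coloured by genotype and marked with the number. In Aqp8 the control and Rb KO points broadly go up from left to right, with Rb KO 4 lowest at 7.01 in villi and 5.88 in crypts. Among the DKO points of Aqp8, numbers 1 and 2 lie above and to the right of the others. In Car8 the DKO points lie to the right of the Rb KO points and overlap them in height.

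The rest of the carbonic anhydrase family had 9 of 10 genes tested, Car5b lying below the limit on mean signal. In Rb KO villi 1 rose and 3 fell, beside 30.5 percent of all genes called. Car9, a membrane-spanning enzyme known as a target of the hypoxia-inducible factor, rose from 10.51 ± 0.42 to 11.77 ± 0.14 (SD, n = 5), a difference of 1.26 ± 0.15 (adjusted p = 1.73e-05) with no overlap between the groups. Those that fell were the secreted form Car6 (-0.69 ± 0.22, adjusted p = 0.0248), Car7 (-0.23) and Car10 (-0.24). Of these Car6 and Car10 had villus group means below 6, with control arrays of Car6 at 5.43 to 6.85. In DKO against control villi Car9 rose by 0.90 ± 0.15 (adjusted p = 0.000624) and Car14 (-0.24) and Car10 (-0.25) fell, beside 17.1 percent of all genes, while in DKO against Rb KO villi limma called 0 of the 9, beside 7.83 percent, with 1 higher and 2 lower at an unadjusted p below 0.05. Car9 also rose in Rb KO crypts, by 0.44 ± 0.11 (adjusted p = 0.0215), less than in villi by 0.82 ± 0.20 (adjusted p = 0.00539 for the interaction). It was the 1 call of the 9 in that crypt comparison, beside 10.3 percent of all genes. The single further call in crypts was Car6, higher in DKO than in Rb KO by 0.41 ± 0.13 (adjusted p = 0.0425), beside 12.4 percent of all genes.

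All 8 of the other aquaporin genes were tested, and 2 were called, both in villi, beside 30.5 percent of all genes in Rb KO against control and 7.83 percent in DKO against Rb KO. Aqp11, a channel of intracellular membranes, fell from a control level of 11.12 ± 0.30 to 10.07 ± 0.18 after Rb1 loss (SD, n = 5; difference -1.05 ± 0.14, adjusted p = 3.38e-05) and stood at 10.99 ± 0.21 in DKO villi, 0.92 ± 0.14 above Rb KO (adjusted p = 0.00159). The glycerol channel gene Aqp7 fell by 0.63 on the log2 scale (difference -0.63 ± 0.22, adjusted p = 0.0366) and was higher in DKO than in Rb KO by 0.80 ± 0.22 (adjusted p = 0.0361). In both genes the fall and the rise use the same Rb KO arrays, and neither was called in DKO against control villi or in any crypt comparison. The effect of Rb1 loss on Aqp11 differed between the tissues by 0.66 ± 0.20 (adjusted p = 0.0251).

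Of 32 genes for the ion transport that carbonic anhydrases and water channels serve, 27 were tested. In Rb KO villi 8 of the 27 were called, which is no excess beside the 30.5 percent of all genes. Of these 2 rose, Guca2a, which encodes the secreted peptide guanylin (0.95 ± 0.26, adjusted p = 0.0111), and the potassium channel gene Kcnn4 (0.78 ± 0.28, adjusted p = 0.0415). Another 6 fell, among them the bicarbonate cotransporter gene Slc4a5 (-1.18 ± 0.13, adjusted p = 5.65e-06), the sulfate transporter gene Slc26a2 (-0.82 ± 0.17, adjusted p = 0.00177), the sodium and proton exchanger gene Slc9a2 (-0.47 ± 0.11, adjusted p = 0.0046) and Gucy2c, the receptor of guanylin (-0.29 ± 0.08, adjusted p = 0.00829). In DKO against Rb KO villi 1 rose (Slc4a5, 0.69) and 1 fell (the chloride channel gene Ano1, -0.41), beside 7.83 percent of all genes. In DKO against control villi 1 rose (Guca2a, 0.88) and 5 fell (Slc26a3, Slc4a5, Kcnj13, Gucy2c and Prkg2), with Slc26a3, the chloride and bicarbonate exchanger of the luminal membrane, lower by 0.52 ± 0.12 on the log2 scale (difference -0.52, adjusted p = 0.0093), and 17.1 percent of all genes were called. In Rb KO crypts 2 rose (Guca2a, 0.45, and Ano1, 0.28) and 2 fell (Slc4a5, -0.65, and Kcne3, -0.36), beside 10.3 percent of all genes.

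In DKO against Rb KO crypts 5 of the 27 rose and 3 fell, beside 12.4 percent of all genes called. Kcne3 rose by 0.84 ± 0.11 (adjusted p = 0.000134), from 11.75 to 12.59, Atp1b1, a subunit of the sodium and potassium pump, by 0.33 ± 0.05 (adjusted p = 0.000434), and Slc12a2 by 0.52 ± 0.11 (adjusted p = 0.00459). The subunit gene of the epithelial sodium channel, Scnn1a, fell by 0.26 on the log2 scale (difference -0.26 ± 0.05, adjusted p = 0.00368). The others that rose were Slc4a5 (0.43) and Kcnq1 (0.39), the channel that Kcne3 joins, and the others that fell were Guca2a (-0.66) and Ano1 (-0.43). In DKO against control crypts 2 rose, Kcne3 by 0.48 ± 0.11 and Atp1b1 by 0.25 ± 0.05, and limma called 0 as lower, with 4 lower at an unadjusted p below 0.05, beside 20.2 percent of all genes called in either direction. Kcne3 and Slc12a2 are those whose pattern was most like that of Aqp4. This list was chosen with earlier results of these data known, and its median difference was between -0.12 and 0.05 over the 6 comparisons, where that of all genes was between -0.03 and 0.01.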

How the data were processed

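As deposited, each of the 30 arrays has a log2 value for 45101 probe sets (2.64 to 15.21), and how the authors normalized them is not given in the sources used here. Per the labels, RNA was isolated with TRIzol and RNeasy. Medians were 6.28 to 6.34 in villi and 6.67 to 6.73 in crypts, hence the tissues were fitted apart. Symbols came from the platform annotation (34958 probe sets with 1 symbol, 932 with several, 9211 with none). A gene was read from its probe set of highest mean and tested above the 30th percentile of all probe set means (5.33). Limma 3.58.1 in R 4.3.3 was fitted over the 3 genotypes of a tissue, or all 30 arrays for interactions, two-sided, without covariates; the fit was tested on simulated data. Equally numbered villi and crypts of a genotype correlated in their deviations from the group means in 15 of 15 cases (r 0.246 to 0.560), 14 best with their own number, and were taken as 1 animal.

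The named genes are the 10 members, the called members of 3 related lists (other carbonic anhydrases, other aquaporins, ion transport partners; at most the 4 of smallest p where more than 5 were called) and the 3 genes of highest r with each member. Members and lists were chosen with earlier results of these data known. Alternatives covered probe sets, filters, normalization, limma settings, covariates (sex from Xist, crypt markers), blocks, threshold and left-out arrays; fitting all probe sets was added after seeing the data. The number of arrays limits the precision. Promoters are RefSeq's on GRCm38.p6, searched for 5 of the 10 genes and without chromosome 18, which holds Aqp4. Figures were drawn with matplotlib 3.10.9.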

Additional observations from a re-analysis of the deposited data

Results flagged for a closer look

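In 4 of the 60 groups of 5 arrays (10 genes in 6 groups), 1 array stood apart from the rest of its group by Dixon's criterion, whose critical value is 0.71 and which chance alone exceeds in about 1 in 20 groups. Car4 read 9.04 in DKO crypts 4, below the nearest array at 9.81, and control 4 was likewise the lowest Car4 array of the control crypts. Car2 read 9.68 in DKO crypts 5, below the nearest at 10.33, and without this array the difference of DKO from Rb KO crypts passed the threshold. Aqp8 read 8.97 in DKO villi 2, above the nearest at 8.38, and number 2 was also the highest DKO array for Aqp8 in crypts, at 7.24. Car1 read 5.91 in control crypts 5, above the nearest at 5.57.

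The effect of DKO against Rb KO on Car8 differed between crypts and villi by -1.02 on the log2 scale (adjusted p = 0.0432 by limma, 0.00384 with the animal as a block): the gene rose by 0.88 in villi and differed by -0.14 in crypts. A second probe set of the gene, of low signal, gave -0.25 for this difference between tissues (adjusted p = 0.428 by limma).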

How the results depend on the processing

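Over 27 alternatives of each genotype comparison and 24 of each interaction no called member changed sign. The number of members called in DKO against Rb KO villi, 2, became 1 with the mean of all probe sets of a gene and 0 without Rb KO 4 and 5 or at an adjusted p of 0.01. In Rb KO against control villi, 4 became 2 with only the compared groups in the fit and 1 at 0.01. In Rb KO against control crypts, 2 became 1 with the crypt marker score, without Rb KO 4 and 5, and at 0.01. In DKO against control villi, 3 became 5 with the crypt marker score. The 1 call of the interaction for DKO against Rb KO became 0 with averaged probe sets, with quantile normalization, without Rb KO 4 and 5, and at 0.01. For these changes the cause was not tested. With the animal as a replicate block the interaction for Rb KO against control went from 0 to 4 calls. Leaving out 1 array at a time gave 1 to 4, 0 to 2 and 3 to 4 calls in the villus comparisons (Rb KO against control, DKO against Rb KO, DKO against control), 2 to 3, 3 to 4 and 5 to 7 in crypts, and 0 to 1 in each interaction. Arrays of different genotypes with equal numbers did not as a rule deviate together (median r 0.0365, above 0.1 in 12 of 30 pairs, 6 of 30 best with their own number). With that number as a replicate block Aqp8 was called in crypts, in Rb KO (-0.83, adjusted p = 0.00783) and in DKO (-0.65, adjusted p = 0.0146) against control, and no other member's call in a genotype comparison changed. Car1 lies near the lower limit of the signal tested.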

Other observations

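The genes with the pattern most like that of the remaining members, by Pearson's r over the 30 arrays with the mean of each tissue taken away, are given here as a description, since all of these points share arrays and include the differences between genotypes. Those of Aqp8 were Slc25a36, a mitochondrial nucleotide carrier, Hectd3, a ubiquitin ligase, and Lmbr1l, each at r of 0.86, and for Slc25a36 the r was 0.95 over the 15 villus arrays and 0.60 over the 15 crypt arrays. For Aqp1 they were Gas6, a ligand of receptor tyrosine kinases (0.80), Pdxk, a kinase that activates vitamin B6 (0.77), and Add1, a protein of the membrane skeleton (0.77). For Car12 they were Qtrt1, an enzyme of transfer RNA modification (0.82), Gpld1, which cleaves lipid anchors (0.78), and the mitochondrial chaperone gene Clpb (0.78). For Car8 they were Prcp, a lysosomal peptidase (0.79), Tmem168 (0.78) and Scamp1, a carrier protein of secretory membranes (0.77), with r lower in crypts (0.36 to 0.58) than in villi (0.82 to 0.88). The highest r of Car1 and Aqp3, whose calls numbered 0, were 0.70 with Srpk3 and 0.73 with Rfxank.

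Carbonic anhydrases and aquaporins differ along the length of the gut, so markers of position were read. The mean of 5 markers of the proximal small intestine was 10.37 to 11.25 over the villus arrays, and limma called 0 of the 5 in a villus comparison, with 0 at an unadjusted p below 0.05. The ileal genes Fabp6 and Slc10a2 had villus group means of 3.59 to 3.96, below the limit on mean signal, while Slc51a and Slc51b, the other genes on the ileal list, read 12.52 to 12.56 and 10.23 to 10.52 and were not called in villi. Of 2 colon markers Hoxd13 was called lower in DKO against control villi (difference -0.26 ± 0.08, adjusted p = 0.0469), beside 5.78 percent of all genes called lower. Hoxb13 was not called. The signal of Hoxd13 was low, with means of 6.3 in control and 6.05 in DKO villi, where the lower limit of the genes tested was 5.33. The part of gut position in the falls of Car4 and Aqp8 in that comparison was not tested. Among the pairs of members, Car2 and Car4 had an r of -0.61 over the 15 villus arrays and -0.74 over the 15 crypt arrays, and Aqp1 and Aqp4 had 0.01 in villi and 0.85 in crypts. These pairs were picked out of 45 after their values were seen.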
